A study of Saccharomyces cerevisiae with 16 samples.

Results

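Regions of the budding yeast genome that lay under RNA polymerase II (RNAPII) peaks before heat shock and under none afterward are described here. A region is a stretch of at least 100 bp covered by a peak in all 4 untreated peak lists and by no peak in any of the 4 heat shock lists. This rule gave 55 regions with 28199 bp in total, cut from 1129 blocks of at least 100 bp that were covered in all 4 untreated lists. Because peak positions in these same 8 lists chose the regions, the difference in their coverage between treatments is reported as a description and without a test.

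RNAPII ChIP-seq recovers chromatin bound to RNAPII, here with the 8WG16 antibody against the subunit Rpb1, and peaks are stretches enriched over input chromatin. WT (W303a, a *MAT a* laboratory strain that carries *ura3*, *trp1*, *leu2*, *his3*, *ade2* and *can1* mutations) was compared with *ubc9-6*, in which a tandem repeat of a mutant *UBC9* allele with an *ADH1* terminator and a *TRP1* marker sits at the *UBC9* locus and lowers the activity of the SUMO-conjugating enzyme. Each strain was grown at 30 °C and either left untreated or shifted to 37 °C for 12 min, which gave 4 groups of 2 replicates each, named by strain and treatment. The auxotrophies are those listed for the W303a parent, and each genotype is represented by a single strain.

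As background, RNAPII transcribes protein-coding genes and travels with the gene body, so a peak over an open reading frame (ORF) marks a gene with RNAPII on it. In yeast, a shift to higher temperature is known to raise transcription of chaperone and stress genes and to lower, for a time, transcription of many genes for growth, such as those for ribosomes, amino acids and cell cycle entry. Gcn4 is the activator of amino acid biosynthesis genes, and it binds a short site with the core TGACTC upstream of them.

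The 8 lists held 1451 to 1545 peaks that covered 23.0% to 25.4% of the 12071326 bp nuclear genome, and no pair of lists was identical. The reads behind each list are unknown here, so no value carries a counting interval, and an uncalled stretch may hold RNAPII below the calling threshold. One list stood apart for the purpose of this rule, since WT untreated replicate 1 covered only 34.5% of the base pairs that the other 7 lists chose, against 71.2% to 80.2% in the other untreated lists, and results are given with and without it. The sample labels give replicate numbers only, and the series' design text calls the replicates independent.

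The sequence that follows shows what kind of DNA the regions hold. It is the shortest region from an entire peak absent after heat shock, inside the ORF of the valyl-tRNA synthetase gene *VAS1* (sacCer3 chrVII:672267-672453, plus strand, 37.4% GC). The region is the part shared by untreated peaks of 777 to 3480 bp. It is coding sequence, printed 5′ to 3′ on the strand of the gene.
VAS1: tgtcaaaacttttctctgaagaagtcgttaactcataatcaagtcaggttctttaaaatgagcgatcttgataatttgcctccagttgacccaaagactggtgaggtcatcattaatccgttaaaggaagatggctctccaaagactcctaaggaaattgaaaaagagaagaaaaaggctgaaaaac

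The Gcn4 core TGACTC was then looked for, on both strands, in the 300 bases before the start codon of each gene, since several amino acid biosynthesis genes are among those described below. It was present upstream of 14 of the 48 genes with at least 100 bp of ORF in a region, a share of 29.2%, against 8.78% of the 1560 genes with at least 100 bp covered in all 4 untreated lists and 7.76% of all 6002 protein-coding genes. For the amino acid biosynthesis genes, 8 of the 10 in regions had the core (80%), as did 28 of the 47 in the untreated blocks (59.6%). Of the 38 other genes in regions, 6 had it (15.8%). Windows of 30 bases around the match nearest the start codon are shown for 7 of those 8 genes, on the gene's strand, with the core or its reverse complement in capitals.
ILV3 (chrX:466326-466355, minus): ttcctctccagaTGACTCagtaatatagta
ARO1 (chrIV:704249-704278, plus): ttgtcatgcataTGACTCatcccgaacatg
HIS3 (chrXV:721812-721841, plus): ccacctagcggaTGACTCtttttttttctt
ASN2 (chrVII:739735-739764, plus): ttttcttagcatTGACTCatggcaagattt
THR4 (chrIII:216506-216535, plus): gtgcgaacaaaaGAGTCAttacaacgagga
SER1 (chrXV:679161-679190, plus): gcccaaaagtagTGACTCtttctaagcatc
THR1 (chrVIII:159325-159354, plus): aaatttgtgcaaGAGTCAtcatctcgaaaa

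None of the 8 windows lay inside a region, and 2 of them lay entirely under a peak in all 4 untreated lists, so at these genes the regions are downstream of the match. One core match fell within the *ARO4* region described below, 224 bp before the start codon of the neighboring gene *HIS7*. It is printed on that gene's strand, where it reads as the reverse complement of the core.
HIS7 upstream (chrII:716678-716707, minus): caaaaaaaaattGAGTCAtatcgtagcttt
A match is a run of letters and not a measured binding site. The cell cycle motifs MCB (ACGCGT) and SCB (CACGAAA or CGCGAAA), searched the same way, were upstream of 4 genes each, 8.33% of the 48, against 2.18% and 7.44% of genes in the untreated blocks. *RNR1*, *CLN1* and *CLN2* are among the genes known for expression at the start of the cell cycle. Of these, *RNR1* had an SCB match and *CLN1* and *CLN2* had no match to either motif in this window. The other SCB matches were at *MYG1*, *SVS1* and *TUB2*.

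The regions were 100 to 2098 bp long, with a median of 285 bp, and lay on 14 of the 16 nuclear chromosomes. They made up 1.59% of the base pairs covered in all 4 untreated lists. The opposite rule (every heat shock list, no untreated list) also gave 55 regions, with 24218 bp, or 1.31% of the base pairs covered in all 4 heat shock lists. A further 73 stretches met the coverage rule but were shorter than 100 bp, with 2491 bp in all. Just inside the minimum were regions of 101 bp at *THR1* and *IML1*. Just outside it were stretches of 98 bp in *IMD3*, 94 bp in *LYS12* and 84 bp at a pair of sites outside ORFs.

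**Figure D1:**
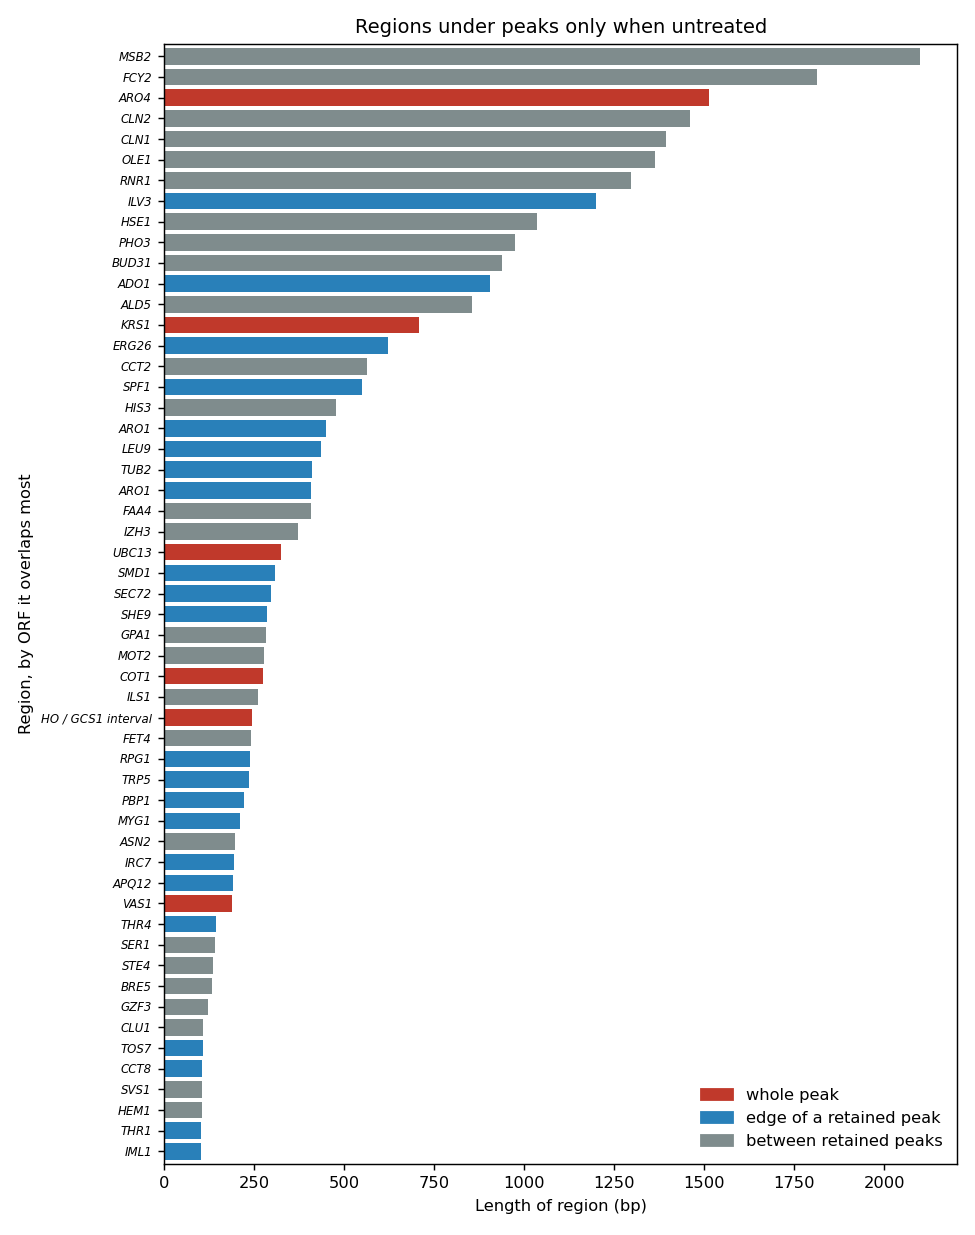
Lengths of the regions in bp, 1 bar per region for all but 1 of the 55, named by the ORF that each overlaps most. Colors mark regions from an entire peak absent after heat shock, from an edge of a remaining peak, or from a gap between remaining peaks. The longest bars, at *MSB2* with 2098 bp and *FCY2* with 1814 bp, are gaps between retained peaks. The longest region from an entire peak is at *ARO4* with 1512 bp.

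To determine whether entire peaks were lost or only parts of them, the untreated peaks touching a region were joined over the 4 lists, and heat shock peaks were looked for in the joined stretch. In 6 cases (3247 bp) no heat shock list had a peak anywhere in the stretch, so an entire peak was absent. These regions are called entire peaks below, although each is only the part shared by the peaks of the 4 untreated lists. In 22 cases (7710 bp) heat shock peaks lay on one side only, so the region was an edge, and in 27 cases (17242 bp) they lay on both sides, so it was a gap between peaks that remained. Most regions were therefore parts of wider untreated peaks, and 44 of the 55 directly touched a peak of at least 1 heat shock list. The classes pool the heat shock lists over the joined stretch, so a peak of 1 list, even a distant one, was enough for a side. At the gap in *FAA4*, no heat shock list had a peak within 200 bp of the region, and the nearest was 919 bp away.

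A stricter reading used only the block covered in all 4 untreated lists. It held no heat shock peak in 3 of the 22 edge regions and in 2 of the 27 gap regions, besides the 6 entire peaks. Within 1000 bp of a heat shock peak lay 46 regions, and 9 were farther away. Of the edges, 13 were at the end of the stretch toward the stop codon of the gene, 7 at the end toward the start codon, and 2 had too little ORF to be oriented.

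The peaks that covered the regions were by the median of moderate strength in their own lists, and some were among the weakest. The mean fold enrichment over input that the authors' peak caller gave them had a median of 1.41 for entire peaks (1.21 to 1.82), 1.56 for edges (1.21 to 4.67) and 1.67 for gaps (1.29 to 3.66). A peak has one value for its full width, so where a wide peak spans several genes the value is not that of the region. The highest value, 4.67 in WT untreated replicate 1, belonged to the peak over *ADO1*, which reached into the neighboring *SOD1*.

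The longest entire peak covered *ARO4* (YBR249C, chromosome II, 716882 to 717994, minus strand), which encodes an enzyme of the first step of aromatic amino acid synthesis. Its region ran from 716611 to 718122 and took in the entire ORF, 128 bp upstream of it and 271 bp downstream, where it ended 145 bp before the start codon of the histidine biosynthesis gene *HIS7*. The covering peaks had fold enrichments of 1.64 and 1.67 in WT and 1.54 and 1.497 in *ubc9-6*, and were 1900, 1899, 1582 and 1694 bp wide. Every untreated list covered the ORF fully, and no heat shock list had a peak in it. After heat shock the nearest peak of any list was 8415 bp away, the greatest distance among the entire peaks.

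A pair of aminoacyl-tRNA synthetase genes, whose enzymes load tRNAs with amino acids, also had entire peaks among the regions. The region at *KRS1* (lysyl-tRNA synthetase, YDR037W, chromosome IV, 525440 to 527215, plus strand) was 707 bp long and held 36.7% of the ORF, at its start, with 56 bp upstream. Peaks covered 36.7% and 100% of the *KRS1* ORF in the untreated WT lists, 100% in both untreated *ubc9-6* lists and none in the 4 heat shock lists. WT untreated replicate 1, with a peak of 711 bp, thus set the limits of this region, while the peaks of the other 3 lists were 1987 to 2635 bp wide.

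At *VAS1* (YGR094W, chromosome VII, 672186 to 675500, plus strand), the 187 bp region printed above lay near the start codon. Untreated peaks covered 9.62% and 8.08% of the ORF in WT and 97.6% and 25.5% in *ubc9-6*, and no heat shock list had a peak in it. The untreated lists therefore differed widely among themselves at this gene. The covering peaks were weak, with fold enrichments of 1.22 and 1.29 in untreated WT and 1.31 and 1.32 in untreated *ubc9-6*.

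The entire peak at *UBC13* (YDR092W, chromosome IV, 629876 to 630605, plus strand), the gene of a ubiquitin-conjugating enzyme of DNA damage tolerance, gave a region of 324 bp. Its peaks were weak, with fold enrichments of 1.22, 1.41, 1.21 and 1.32 in the 4 untreated lists, and covered 44.4% and 95.9% of the ORF in WT and 79.2% and 92.9% in *ubc9-6*. No heat shock peak lay within 6372 bp. At the remaining entire peaks the regions lay outside ORFs almost completely, although untreated peaks of some lists ran on over the neighboring *SFG1* and *GCS1* ORFs. One region of 275 bp (chromosome XV, 905966 to 906240) was downstream of both *COT1*, a vacuolar zinc transporter gene, and *SFG1*, and had 5 bp in the *COT1* ORF. The other, of 242 bp (chromosome IV, 50848 to 51089), was downstream of *GCS1* and upstream of the mating-type endonuclease gene *HO*, 25 bp past the *GCS1* stop codon.

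**Figure D2:**
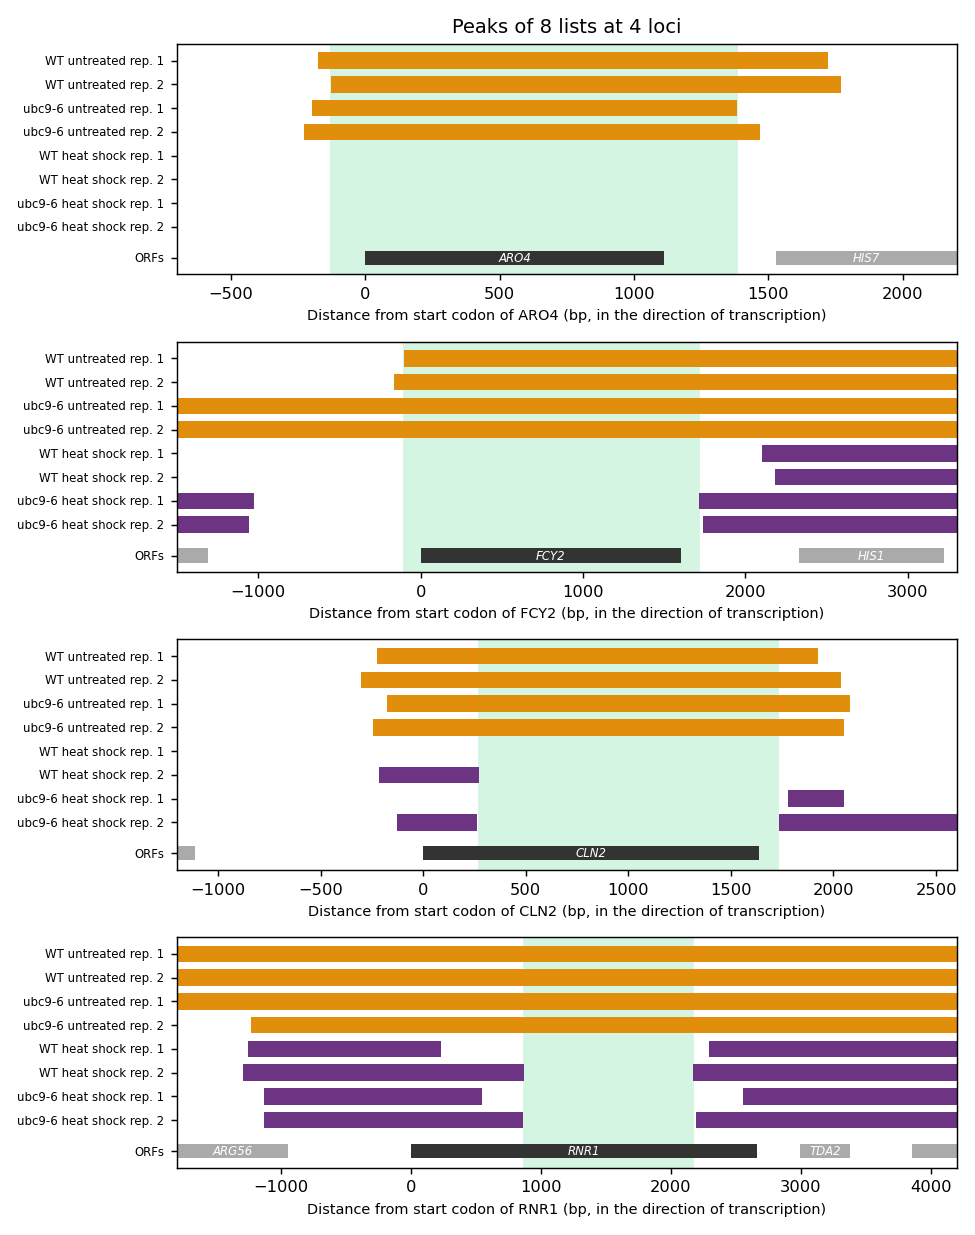
Peaks of the 8 lists at *ARO4*, *FCY2*, *CLN2* and *RNR1* by distance from the start codon in bp, with untreated lists in orange, heat shock lists in purple, the region shaded and ORFs in grey (the named ORF in black). At *ARO4* the heat shock rows are empty throughout, at *FCY2* heat shock peaks remain beyond both ends of the region, and at *CLN2* and *RNR1* they remain at the ends of the gene.

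Among the gaps, the longest region lay in *MSB2* (YGR014W, chromosome VII, 516943 to 520863), which encodes a mucin-like sensor at the cell surface. Peaks covered 68.6% and 100% of the ORF in untreated WT and 100% in both untreated *ubc9-6* lists. The heat shock lists covered 5.66% and 14.2% in WT and 4.87% and 4.97% in *ubc9-6*, and all 4 had a peak within 200 bp of the stop codon side of the region. RNAPII peaks were thus retained at the 3′ end of *MSB2* and, beyond the start codon, over the upstream 300 bp, which heat shock peaks covered to 83% or more in all 4 lists.

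The region at *FCY2* (YER056C, chromosome V, 266512 to 268113, minus strand), the gene of a purine and cytosine permease, was 1814 bp long. It held the entire ORF of 1602 bp, which was fully covered in every untreated list and uncovered in every heat shock list. It belonged to a wide run of peaks that joined to 14856 bp over neighboring genes, and heat shock peaks remained on both sides, including over *HIS1*. *BUD31* (YCR063W, chromosome III, 228318 to 228791), which encodes a splicing factor, showed the same all-or-none coverage of its 474 bp, but its region of 939 bp had a heat shock peak within 200 bp on both sides in all 4 heat shock lists.

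The G1 cyclin genes *CLN1* and *CLN2* were among the longest regions, and other cyclin genes on the same list were in none. *CLN2* (YPL256C, chromosome XVI, 64977 to 66614, minus strand) was fully covered in all untreated lists. In heat shock lists it was covered to 0% and 16.7% in WT and to 0% and 15.9% in *ubc9-6*, and the covered part was at the start codon. *CLN1* (YMR199W, chromosome XIII, 662644 to 664284, plus strand) was likewise fully covered when untreated and covered to 6.89%, 26.6%, 4.57% and 9.38% in the heat shock lists, in the order WT replicates 1 and 2 and *ubc9-6* replicates 1 and 2. At both cyclin genes, replicate 2 of each strain retained more of the ORF than replicate 1.

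*RNR1* (YER070W, chromosome V, 298950 to 301616, plus strand), the large subunit of ribonucleotide reductase, which makes deoxynucleotides, had its region in the middle of the gene only. It was fully covered when untreated and covered to 22.9% and 51.4% in WT and 24.8% and 49.9% in *ubc9-6* after heat shock, and the 300 bp before its start codon were fully covered in all 8 lists. *RNR1*, *ALD5* (a mitochondrial aldehyde dehydrogenase gene) and *MOT2* (a ubiquitin ligase of the Ccr4-Not complex) were crossed by the same untreated peak of 11469 to 16604 bp in 3 of the 4 lists, so these 3 regions are not independent. *ALD5* was fully covered when untreated and covered to 46.1% and 6.46% in WT and 17.8% and 7.81% in *ubc9-6* after heat shock.

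*OLE1* (YGL055W, chromosome VII, 398628 to 400160, plus strand), which encodes the fatty acid desaturase, was fully covered in the untreated lists. WT heat shock lists covered 28.8% and 27.2% of it, at the start of the gene, while both *ubc9-6* heat shock lists covered none. The strains did not overlap in this value after heat shock, and with 2 lists against 2 such a difference cannot be tested below an exact permutation p of 0.333. *ERG26*, of ergosterol synthesis, went from 63.7% to 91.9% when untreated to at most 4.67% after heat shock.

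*PHO3*, *HSE1* and *ADO1* completed the longest regions. *PHO3* (an acid phosphatase gene, YBR092C, chromosome II) was fully covered when untreated and covered to 0%, 15.03%, 30.6% and 7.91% in the heat shock lists. It lies beside its close copy *PHO5*, and how reads shared by such copies were placed is not given in the sources used here, so its values are uncertain. *HSE1* (an endosomal sorting gene, YHL002W, chromosome VIII) retained 12.4% to 19.6% after heat shock, and *ADO1* (adenosine kinase, YJR105W, chromosome X) retained 20.1% in WT replicate 1 and none in the other 3 heat shock lists.

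**Figure D3:**
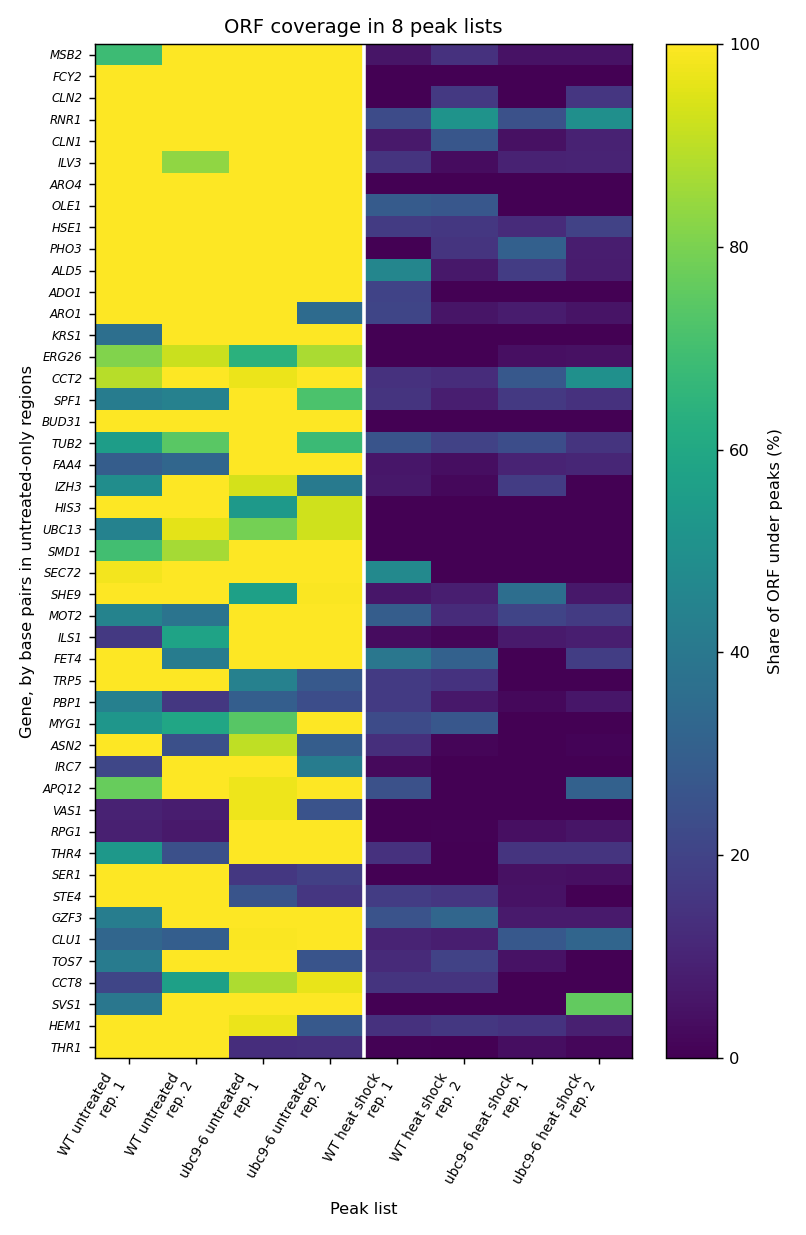
Share of each ORF under peaks (color, in %) for 47 of the 48 genes with at least 100 bp of ORF in a region, 1 row per gene, in the 4 untreated lists (left of the white line) and the 4 heat shock lists (right). No gene was fully covered in any heat shock list, which the choice of regions fixes. The untreated columns are full for many genes in the upper rows, and lower rows such as *THR1* and *RPG1* differ between the strains when untreated.

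The 48 genes were 0.8% of the 6002 protein-coding ORFs and 3.08% of the 1560 ORFs with at least 100 bp covered in all 4 untreated lists. By the opposite rule, 35 ORFs, or 0.583%, had at least 100 bp in a region seen only after heat shock, and no gene was in both sets. Median ORF coverage over the 48 genes was 93.8% and 100% in untreated WT and 100% in both untreated *ubc9-6* lists, against 11.0% and 4.64% in heat-shocked WT and 4.33% and 5.10% in heat-shocked *ubc9-6*. At *PBP1*, *STE4*, *CLU1* and *SVS1*, the highest heat shock list lay above the lowest untreated list over the full ORF. That the other genes showed no such overlap is not a result about them, since the regions were chosen on this coverage. At *SVS1*, *ubc9-6* heat shock replicate 2 covered 76.0% of the ORF, against none in the other heat shock lists and 39.5% in WT untreated replicate 1.

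Of the 48 genes, 3 lay in regions entirely (*FCY2*, *ARO4* and *BUD31*) and 16 for at least 50% of the ORF. No heat shock peak reached the ORF in any list for 8 genes, namely these 3 with *KRS1*, *HIS3*, *UBC13*, *SMD1* and *VAS1*. In 18 genes the heat shock peaks within the ORF lay only on the start codon side of the region, in 8 only on the stop codon side and in 14 on both sides. The genes thus fell into groups with a retained 5′ part, a retained 3′ part, both or neither, of which the first was the most frequent. These counts pool the heat shock lists, so a peak in 1 list was enough, as at *ADO1*. In heat-shocked WT, 30 and 25 start codons were under a peak against 10 and 9 stop codons. In heat-shocked *ubc9-6* the counts were 18 and 15 against 15 and 19. In the 1512 other genes of the untreated blocks, 86.0% and 84.4% of start codons and 80.6% and 80.0% of stop codons were under a peak in heat-shocked WT. In heat-shocked *ubc9-6* the shares were 81.3% and 78.2% of start codons and 88.7% and 89.0% of stop codons. The 48 genes were chosen for ORF without heat shock peaks, so lower shares in them are not a result.

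Amino acid biosynthesis genes were the most numerous group. From a list of 70, 10 had at least 100 bp of ORF in a region, which is 14.3% of the list and 21.3% of the 47 with at least 100 bp covered in all 4 untreated lists, beside 3.08% over all such ORFs. None of the 70 was in a region seen only after heat shock. The list was chosen with earlier results of these data known and is not independent evidence, and with a minimum length of 200 bp only 5 of the 10 remained. The 10 spanned several pathways, with no more than 3 from any one of them.

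From the branched-chain pathway, *ILV3* (dihydroxyacid dehydratase, YJR016C, chromosome X, 464451 to 466208) had the longest region of the group after *ARO4*, an edge of 1199 bp on the stop codon side. Untreated coverage was 100% and 83.4% in WT and 100% in both *ubc9-6* lists, and heat shock coverage was 15.2%, 3.13%, 9.61% and 10.01%. The 300 bp upstream were fully covered in all 8 lists, so peaks remained over the promoter where much of the body had none. *LEU9*, of the same pathway, had 86 bp of ORF in a region of 436 bp that crossed its start codon and lay otherwise upstream of the gene.

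From the aromatic pathway, *ARO1* (YDR127W, chromosome IV, 704484 to 709250), a single long gene for several successive enzyme activities, held 2 regions, of 449 and 408 bp. Untreated lists covered it to 100%, 100%, 100% and 35.1%, heat shock lists to 21.0%, 5.68%, 7.78% and 5.22%, and the 300 bp before its start codon were fully covered in all 8 lists. *TRP5* (tryptophan synthase) had an edge of 234 bp. Its untreated coverage was 100% in both WT lists but 43.8% and 27.9% in *ubc9-6*, and its heat shock coverage was 16.9% and 14.6% in WT and 0% in both *ubc9-6* lists.

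*HIS3* (histidine biosynthesis, YOR202W, chromosome XV, 721946 to 722608) had a gap of 477 bp that ran past its stop codon toward *DED1*. Both strains derive from a parent with a mutant *his3* allele, and peaks nevertheless covered the ORF to 100% and 100% in untreated WT and to 54.0% and 92.9% in untreated *ubc9-6*, with none after heat shock. Other genes of the list had short regions, with 196 bp at *ASN2* (asparagine synthetase), 144 bp at *THR4* (threonine synthase), 141 bp at *SER1* (serine synthesis) and 101 bp at *THR1* (homoserine kinase). At *SER1* and *THR1* both untreated WT lists covered the entire ORF, whereas untreated *ubc9-6* lists covered 16.2% and 19.1% of *SER1* and 13.2% and 13.6% of *THR1*. For these genes most of the ORF had no peak in *ubc9-6* even before heat shock, and the short shared piece is what met the rule.

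The opposite strain pattern was seen at other members. *RPG1* (a subunit of initiation factor eIF3) was covered to 8.88% and 6.74% in untreated WT and fully in both untreated *ubc9-6* lists, and *ILS1* (isoleucyl-tRNA synthetase) to 16.6% and 58.1% in WT and fully in *ubc9-6*. *FAA4* (a fatty acyl-CoA synthetase gene) was covered to 29.5% and 33.1% in WT and fully in *ubc9-6*, and *CLU1* to 33.2% and 30.1% in WT and to 99.2% and 100% in *ubc9-6*. At these genes the region was the part shared by unlike untreated patterns of the strains.

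With *ILS1*, *KRS1* and *VAS1*, 3 of 21 aminoacyl-tRNA synthetase genes were in regions (14.3%, against 0.8% of all ORFs), among only 5 with at least 100 bp in the untreated blocks. The counts of the other lists were small and are read beside the 3.08% of all ORFs in the untreated blocks. Of the 16 histone and G1 cyclin genes, *CLN1* and *CLN2* were in regions and no histone gene was, although all 16 had at least 100 bp in the untreated blocks. The ergosterol and fatty acid list gave *OLE1* and *ERG26* from 35 genes, 26 of them in the blocks. *FCY2* was the member from 54 permeases and transporters (3.85% of the 26 in the blocks), *RNR1* from 40 genes of purine and pyrimidine synthesis (5.88% of 17) and *RPG1* from 37 translation factors (5.56% of 18).

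Several lists had no member in any region. They were the 137 ribosomal protein genes (22 in the untreated blocks), 99 ribosome biogenesis genes (3 in the blocks), 47 cell wall genes (35), 38 respiratory genes (38), 27 glycolysis and fermentation genes (24), 20 subunits of RNA polymerases I and III (1) and 11 SUMO pathway genes (1). Since 3.08% of all ORFs in the blocks were in regions, a count of 0 is near that share for lists of this size and is not a result about them. The small numbers in the blocks also mean that ribosomal protein and ribosome biogenesis genes could seldom meet the rule, since most had no 100 bp covered in all 4 untreated lists. Neither the 28 heat shock factor genes (24 in the blocks) nor the 28 general stress genes (18) had a member, which is likewise near that share. The opposite rule, which called 0.583% of all ORFs, gave *SSA3* and *APJ1* from the first list and *SPI1* and *GND2* from the second.

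The remaining 28 genes belonged to none of the 16 lists. They included *CCT2* and *CCT8*, which encode subunits of the chaperonin that folds actin and tubulin, and *TUB2*, which encodes β-tubulin. *CCT2* had a gap of 562 bp and retained 12.8% to 50.1% of the ORF after heat shock, *CCT8* an edge of 104 bp, and *TUB2* an edge of 409 bp, with 55.6% to 99.8% of the ORF covered when untreated and 14.9% to 25.8% after heat shock. *STE4*, which encodes the β subunit of the pheromone receptor G protein, had 135 bp, and 281 bp lay at *GPA1*, the gene of its α subunit, 13 bp of them in the ORF. Other members were *SPF1* (an endoplasmic reticulum ATPase), *SEC72* (protein translocation), *SMD1* (a spliceosomal Sm protein), *HEM1* (the first enzyme of heme synthesis), *FET4* (a low-affinity iron transporter), *GZF3* (a GATA-type repressor), *PBP1*, *IZH3*, *SHE9*, *MYG1*, *IRC7*, *APQ12* and *TOS7*. Regions with under 100 bp of ORF were also found at *BRE5* (22 bp) and *IML1* (61 bp).

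To determine where in genes the regions lay, each base pair was assigned by annotation. ORFs held 87.8% of the base pairs of the regions, against 66.3% of those covered in all 4 untreated lists, 66.4% of regions seen only after heat shock and 72.8% of the genome. Stretches upstream of 2 divergent genes held 0.653%, against 7.40% of the untreated blocks, and stretches between tandem genes held 9.11% against 18.9%. Stretches downstream of 2 convergent genes held 2.39% against 7.35%. Regions therefore lay mostly in gene bodies and seldom at shared promoters, and 37 of the 55 lay completely within ORFs.

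Within genes, the regions were spread from end to end. Of 49 regions with enough ORF to be placed, 19 had their midpoint in the part of the ORF nearest the start codon when it was divided into 3 equal parts, 15 in the middle part and 15 in the last, and the median midpoint was at 0.536 of the ORF from the start codon. Across their ends, 38 regions crossed no ORF boundary, 10 crossed only a stop codon, 4 only a start codon and 3 both. No region overlapped any of the 275 tRNA genes, 76 snoRNA genes or other annotated RNA genes. GC content was 40.6%, against 38.8% in the untreated blocks, 39.3% in the regions seen only after heat shock and 38.3% in the genome, and the part of the higher share of coding sequence in this was not tested.

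**Figure D4:**
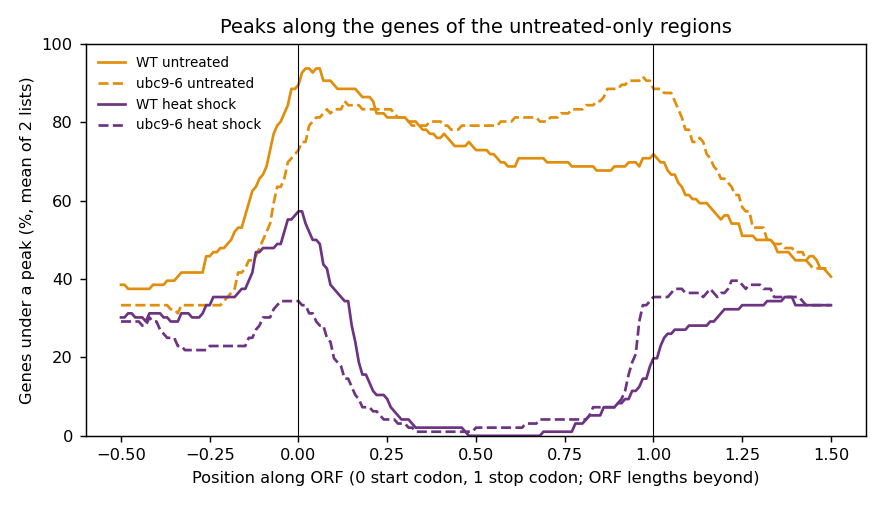
Share of the 48 genes under a peak (in %, mean of 2 lists per group) by position along the ORF, from the start codon at 0 to the stop codon at 1, with ORF lengths beyond. Heat shock lines stay under 5% in the middle of the ORF, which the choice of regions fixes, and in both treatments the WT line is higher at the start codon and the *ubc9-6* line at the stop codon.

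The strains were then compared at the ends of the 48 genes, a contrast that the rule did not use but that was chosen after its values were seen, so it was not tested. The start codon was under a peak in 42 and 44 genes in untreated WT and in 31 and 39 in untreated *ubc9-6*. After heat shock it was under a peak in 30 and 25 genes in WT and in 18 and 15 in *ubc9-6*. At the stop codon the order was the reverse, with 31 and 38 genes in untreated WT, 44 and 41 in untreated *ubc9-6*, 10 and 9 in heat-shocked WT and 15 and 19 in heat-shocked *ubc9-6*. The strains did not overlap in any of these 4 comparisons.

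This shift toward the 3′ end in *ubc9-6* was not particular to the 48 genes. In the 1512 other genes of the untreated blocks, the start codon was under a peak in 87.7% and 88.6% of genes in untreated WT and in 72.6% and 80.5% in untreated *ubc9-6*, and the stop codon in 86.4% and 86.6% against 95.6% and 94.0%. After heat shock the start codon of those genes was still under a peak in 86.0% and 84.4% in WT and 81.3% and 78.2% in *ubc9-6*. Their stop codon was under a peak in 80.6% and 80.0% in WT and 88.7% and 89.0% in *ubc9-6*.

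Further strain contrasts over the 55 regions were tested with the list as the unit. Width and distance come from the same peak coordinates as the rule, so the choice of regions limits both values in every list. The rule treated the strains alike and did not use the contrast between them. The covering peaks stood at a median percentile by fold of 51.3 ± 4.10 within untreated WT lists and 49.8 ± 1.06 within *ubc9-6* lists (SD, n = 2, difference -1.56, exact permutation p = 1, two-sided). Their median width was 2368 ± 192 bp in WT and 2806 ± 242 bp in *ubc9-6* (SD, n = 2, exact permutation p = 0.333, two-sided). After heat shock the median distance from a region to the nearest peak of a list was 224.5 ± 146 bp in WT and 299 ± 38.2 bp in *ubc9-6* (SD, n = 2, exact permutation p = 1, two-sided). The widths did not overlap between the strains (2232 and 2504 bp against 2977 and 2635 bp), while the fold percentiles and distances did. Since 0.333 is the smallest p that 2 lists against 2 can give, these tests cannot decide whether the strains differ.

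To obtain a reading that the rule did not fix, it was applied in one strain and the resulting regions were read in the other. The 4 WT lists gave 269 regions (176313 bp). Untreated *ubc9-6* lists covered 68.5% and 64.9% of them and heat-shocked *ubc9-6* lists 41.9% and 44.0%, a difference of 23.8 percentage points between means of 66.7 ± 2.50 and 42.9 ± 1.47 (SD, n = 2, exact permutation p = 0.333, two-sided). The 4 *ubc9-6* lists gave 511 regions (426085 bp), and these were covered to 33.5% and 48.4% in untreated WT and to 19.3% and 25.1% in heat-shocked WT, a difference of 18.8 points between 41.0 ± 10.5 and 22.2 ± 4.07 (SD, n = 2, exact permutation p = 0.333, two-sided).

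In each strain, regions called only when untreated in the other strain were thus covered more in both untreated lists than in either heat shock list. Pooled over the strains, with treatment labels exchanged only among lists of a strain, the difference was 21.3 points (permutation p = 0.0556, two-sided, the smallest this design allows). With Benjamini-Hochberg adjustment over the 6 tests reported this p was 0.333, and the other 5 had adjusted values of 0.5 or 1. Each list both chose regions for the other strain and was read for its own. The regions were held fixed while labels were exchanged, so the strains are not independent here and the pooled p is not exact. Heat-shocked *ubc9-6* lists still covered over 40% of the regions chosen in WT, above the 24.5% and 24.6% of the genome that these lists covered. Heat-shocked WT lists covered 19.3% and 25.1% of the regions chosen in *ubc9-6*, close to the 23.6% and 23.0% of the genome that they covered.

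**Figure D5:**
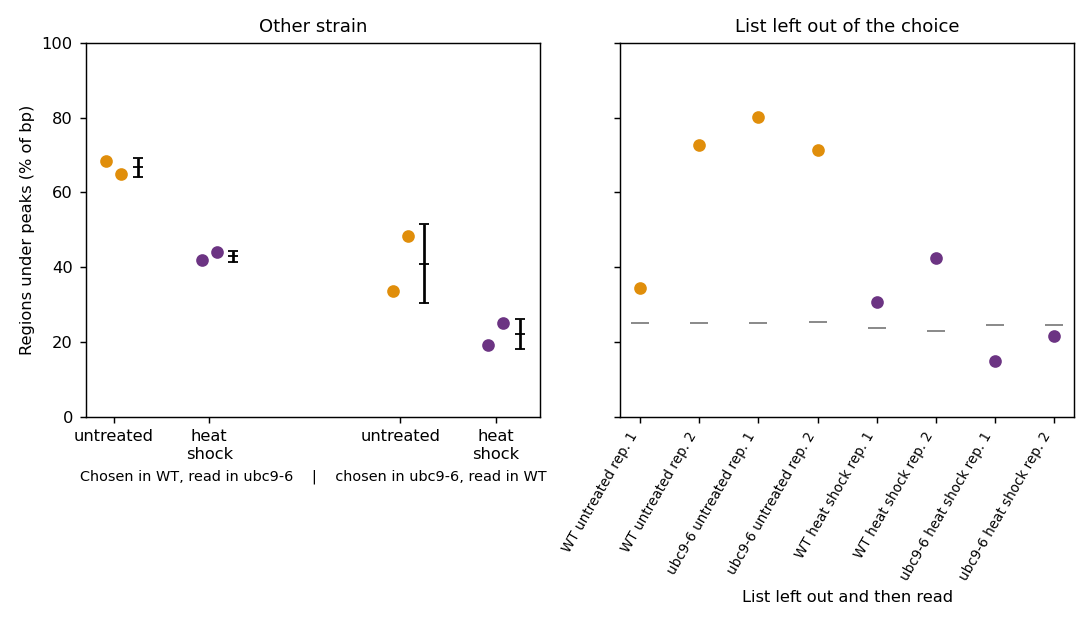
Left, share of base pairs under peaks (in %) for regions chosen in one strain and read in the 4 lists of the other, with 1 point per list (orange untreated, purple heat shock) and mean ± SD in black. Right, the share in each list of regions chosen from the other 7 lists, with the share of the genome under peaks as a grey dash. WT untreated replicate 1 at 34.5% lies between the WT heat shock lists, although each list is read on its own set of regions.

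As a second reading, each list was left out in turn and the regions given by the other 7 were read in it. The untreated lists covered 34.5% and 72.8% (WT) and 80.2% and 71.2% (*ubc9-6*) of these base pairs, and the heat shock lists covered 30.7% and 42.5% (WT) and 14.9% and 21.5% (*ubc9-6*). In this share WT untreated replicate 1 lay below the other untreated lists and between the WT heat shock lists. Each list was read on its own set of regions, with 83911 bp for WT untreated replicate 1 and 41633 and 49425 bp for the WT heat shock lists. Whether this sample resembled heat-shocked ones was therefore not tested. Without WT untreated replicate 1 the rule gave 139 regions and 118 genes, and without WT heat shock replicate 2 it gave 87 regions and 73 genes, so the number of regions depends on these lists. Without WT untreated replicate 1 there were 13 entire peaks, 74 edges, 52 gaps and 13 amino acid biosynthesis genes, and the ORF share was 83.1%. The cross-strain difference over both strains was then 26.2 points (permutation p = 0.0556, two-sided, not exact as above). The median distance to a heat shock peak was shorter in *ubc9-6* than in WT (difference -84 bp, exact permutation p = 0.667, two-sided), the opposite of its direction with all lists. Every one of the 55 regions was kept whenever a single list was removed, since fewer lists relax the rule.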

How the data were processed

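RNAPII ChIP-seq was analyzed in 8 immunoprecipitated samples, 2 per group, of 16 in the series. The 8 inputs served only as the authors' controls. The authors trimmed reads with Trim Galore and Cutadapt, aligned them with Bowtie2 (2.3.5) to sacCer3 and called broad peaks per replicate with MACS2 (2.1.1.20160309). The deposited lists give peak coordinates, a fold enrichment over input (ratio) and a −log10 q-value per peak, the last used only for filtering. Depth is unknown.

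Here, coordinates were intersected with Python 3.11.15 and numpy 2.4.6. Regions needed 100 bp, and a gene 100 bp of ORF (start to stop codon, introns included), from the R64 RefSeq annotation, whose chromosome names and lengths are those of sacCer3. Sequences are from RefSeq R64. Tests were permutations of lists, two-sided, and exact except for the test over both strains. Where 2 lists formed a group, p-values measure only the spread between these samples. Region finding was checked on planted lists.

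The regions, gene lists and tests were chosen with earlier results of these data known. Named by rule were the 12 longest regions, the entire peaks, the 5 genes with the largest share and up to 6 members per list by length. Other genes were named after their values were seen, to account for the members. The values of 1 region and its gene are not reported here, and counts include them. Alternatives varied minimum length, peak threshold, merging, lists and the replicate block.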

Additional observations from a re-analysis of the deposited data

How the results depend on the processing

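With a minimum of 50 bp there were 34 edge regions, and with peaks of −log10 q of at least 5, or with the top 1000 peaks of each list, there were 14 in either case, against 22. The count of amino acid genes, whose alternatives were chosen after seeing the data, was 5 with a minimum of 200 bp. Of the 55 regions, 49 were overlapped with a −log10 q of at least 2, 31 with at least 5 and 29 with the top 1000 peaks. The strain difference in fold percentile changed sign to 0.797 with a minimum of 50 bp and to 2.15 with the top 1000 peaks. These strain differences had exact permutation p-values of 0.333 or more throughout, so their signs carry no weight. The cause of these changes was not tested.

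Leaving out each list in turn gave 65 to 139 regions, 33439 to 83911 bp, 6 to 13 entire peaks, 25 to 74 edges, 28 to 52 gaps, 54 to 118 genes and 10 to 13 amino acid genes. The ORF share ranged from 80.3% to 90.1%, the strain difference in fold percentile from -13.96 to 1.79, that in width from 183.0 to 958.75 bp and that in distance from -88.0 to 269.5 bp. Fewer lists relax the rule, so higher counts follow from its construction. Cross-strain differences ranged from 15.8 to 26.2 points for regions chosen in WT, from 11.4 to 26.2 for those chosen in *ubc9-6* and from 13.6 to 26.2 over both, and kept their sign.

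Samples of different groups share replicate numbers. Over ORFs, the deviations of same-numbered samples correlated at 0.339 between WT untreated and WT heat shock. For the other group pairs the correlations were -0.00504 to 0.0463. Same-numbered WT lists thus had something in common, whose source was not tested, and p-values are given without and with a replicate block. With the number as a replicate block, the permutation p of the cross-strain difference of 21.3 points was 0.125, and the exact permutation p-values of the other tests were 0.5 or 1. Depth is unknown and peak lists hold no signal below threshold, so absence of a peak is not absence of RNAPII.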
